A study of Mus musculus with 6 samples.

Results

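The cytosolic ribosomal protein genes were taken as every gene in the 6 count tables whose symbol was Rpl or Rps followed by a digit, together with Rpsa, Rplp0, Rplp1 and Rplp2. Kinases of the Rps6k family (10 symbols), symbols ending in l1 (2, Rpl22l1 and Rpl7l1) and pseudogenes marked -ps (11) were left out. This gave 84 of 21926 genes. Of these, 46 encode proteins of the large subunit and 31 proteins of the small subunit, and these 77 are called the core genes here. The other 7 were the paralog rows Rpl3l, Rpl10l, Rpl39l, Rpl36al, Rps27l and Rps27rt, and Rps19bp1, which encodes a protein that binds Rps19 and is not itself a ribosomal protein. Fau and Rack1, which also encode ribosomal proteins, have other symbols and are described beside them.

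The counts came from the ventromedial hypothalamus (VMH) at postnatal day 10, as single cells of 3 female and 3 male mice, in a series about estrogen receptor alpha signalling and sex differences in energy expenditure. Each mouse had the genotype Ai14f/+;Sf1-Cre and gave 1 plate of 96 wells. Sf1-Cre is a driver made from the Sf1 (Nr5a1) gene of VMH neurons and Ai14 is a red fluorescent reporter of Cre activity, so a cell kept the reporter if it or a precursor had the driver on. Cells were sorted by fluorescence after papain treatment and read with a BD Precise whole transcriptome kit.

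A ribosome joins a large and a small subunit, each an assembly of ribosomal RNA with a fixed set of proteins that are needed in near equal numbers. The mRNAs of most of these proteins begin with a C and a run of pyrimidines, the 5′ terminal oligopyrimidine (TOP) motif, through which mTORC1 and Larp1 set how strongly they are translated. In neurons the same mRNAs are also carried into axons and dendrites.

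Wells were kept where at least 500 genes had a count and mitochondrial genes took less than 25% of the total, which left 530 of 576. Median depth was 5170 counts per well in female 1, 2097 in female 2, 6737.5 in female 3, 7857 in male 1, 5945 in male 2 and 7979.5 in male 3. Female 2 was therefore the shallowest plate, and its 185654 counts in all compare with 441260 to 783270 on the others. Mouse and plate were the same unit and no batch is given in the labels, so a plate effect and a difference between mice cannot be told apart. All 96 well names occurred on every plate, since they are plate positions. The sorted wells looked neuronal: the 10 pan-neuronal markers summed to between 10658 and 13308 counts per 1000000 counts (CPM) in each mouse, and 516 of 530 wells had 3 or more of them. Astrocyte markers summed to 28.7 to 208 CPM in females, with the highest value in female 1, and to 19.4 to 30.6 CPM in males. For microglia, C1qa, C1qb, C1qc, Cx3cr1 and Tmem119 were at 0 in every mouse. Nr5a1 was detected in 156 of the 530 wells. The VMH markers summed to 393 to 659 CPM in females and 416 to 522 CPM in males. Markers of the arcuate nucleus (Pomc, Isl1, Tbx3, Agrp and Npy) varied more between mice. They summed to 79.3 to 1389 CPM in females and 463 to 1085 CPM in males.

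Promoters of the genes were read from RefSeq (GRCm38.p6) for 64 of the 84, since these genes move together across cells and TOP mRNAs are defined at their first bases. A C followed by at least 6 C or T bases on the transcribed strand, starting within 25 bases of the annotated start, was found in 44 of their 76 promoters (57.9%) and in 24.8% of all 32851 promoters. The letters CCGGAA, the core of sites for ETS family factors, stood on either strand of the 300 base window in 36 of the 76 (47.4%) and in 14.9% of all promoters. The annotated starts are not all exact to the base, and a match is a description of letters only. The following lines give, with the run in capitals, 66 bases around the start (base 41 of each is the annotated first base) of the genes that recur in the results: Rpl27a (chr7:109519155-109519220, plus strand) and Rps21 (chr2:180257339-180257404, plus strand), which follow the family closely from cell to cell; Rps10 (chr17:27635219-27635284, minus strand); Rpl41 (chr10:128549143-128549208, minus strand), high and with no such run; and Rpl39 (chrX:37085197-37085262, minus strand) and Rpl24 (chr16:55966235-55966300, plus strand), whose levels stood apart.
Rpl27a: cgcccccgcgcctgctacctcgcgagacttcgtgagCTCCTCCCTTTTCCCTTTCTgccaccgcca
Rps21: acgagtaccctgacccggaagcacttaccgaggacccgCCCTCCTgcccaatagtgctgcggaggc
Rps10: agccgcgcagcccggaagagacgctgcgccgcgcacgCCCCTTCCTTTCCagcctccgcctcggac
Rpl41: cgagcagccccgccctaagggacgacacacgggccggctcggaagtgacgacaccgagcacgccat
Rpl39: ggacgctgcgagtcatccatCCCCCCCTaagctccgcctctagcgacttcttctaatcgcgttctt
Rpl24: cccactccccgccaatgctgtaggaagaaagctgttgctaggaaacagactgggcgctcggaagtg
The run was 20 bases long in Rpl27a, 13 in Rps10 and 7 in Rps21, and in these 3 it began between 4 and 2 bases before the annotated start. In Rpl39 it began 20 bases before it. Rpl41 and Rpl24 had no run of that length in the window.

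The ribosomal protein genes took 6.20% of all counts in female 1, 7.91% in female 2, 6.28% in female 3, 8.03% in male 1, 7.91% in male 2 and 7.27% in male 3. Counting error was small beside these differences, with exact 95% binomial intervals such as 6.13 to 6.27% for female 1 and 7.79 to 8.04% for female 2. These intervals cover counting error only. Female 2, the shallowest plate, lay with the males and apart from the other females. Large subunit genes made up 53.9% of the core counts in female 2 and between 56.7 and 57.2% in the 5 other mice. A median well held counts from 65 of the 84 genes in female 2 and from 73 to 77 in the others.

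**Figure D1:**
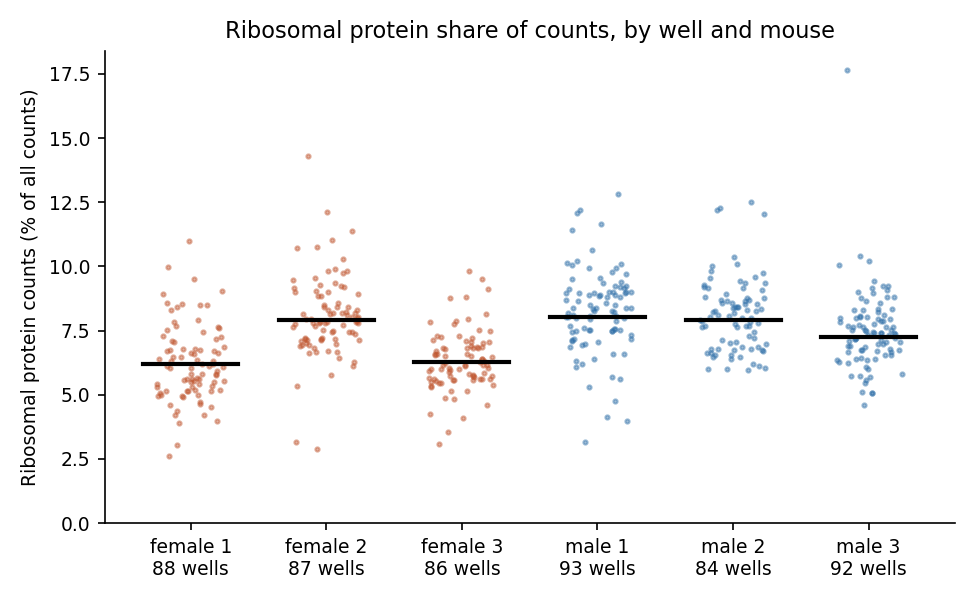
Share of counts in ribosomal protein genes (%, vertical axis) in each of the 530 wells kept, by mouse. Points are wells, and the black bar is the share over all wells of the mouse. Female 1 (6.20%) and female 3 (6.28%) lie lowest, and female 2 (7.91%) lies with the males (7.27 to 8.03%).

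Most core genes had similar levels. Their mean over the 6 mice had a median of 922 CPM, and 69 of the 77 lay within 2-fold of it, with 2 above and 6 below. The coefficient of variation over mice had a median of 15.9% for the 74 core genes between 200 and 2500 CPM, against 19.5% for the 819 other genes in that range. Divided by transcript length, the median of the core genes was 1201 CPM per kilobase, with medians of 1142 for large and 1247 for small subunit genes. As level hardly followed length over these genes, this division raises the rank of short transcripts.

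The 4 highest by CPM had transcripts shorter than the median of the family (774 bases), though over the 77 core genes level and length had a rank correlation of only 0.0723. Rplp1, an acidic protein of the stalk of the large subunit, was at 2099, 2133 and 1729 CPM in females 1 to 3 and at 2343, 2333 and 2239.7 in males 1 to 3. Its 3 male values were above all 3 female ones. Rpl41, the smallest ribosomal protein, was at 1611, 1093 and 1756 CPM in females and 2224, 2454 and 2086 in males. Here too the sexes did not overlap, and female 2 was lowest. Rps21, of the small subunit, was at 1716, 1497 and 1445 CPM in females and 1685, 1942 and 1694 in males, and overlapped. Rps29, also of the small subunit, was at 1944, 1605 and 1109 CPM in females and 1980.2, 1649 and 969 in males. Female 3 and male 3 were the lowest for Rps29, and it varied more within each sex than between them. The next 6 by mean level were Rps2, Rpl3, Rps14, Rpl9, Rps24 and Rps26, from 1530.4 down to 1369 CPM. Rpl9 had the smallest spread of these, at 1398, 1557 and 1352 CPM in females and 1256, 1533 and 1423 in males. Per kilobase, Rplp1 (4300.3), Rps21 (4221), Rps29 (3956) and Rpl41 (3439) remained the first 4 of all 84 genes, a ranking that favours their short transcripts.

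**Figure D2:**
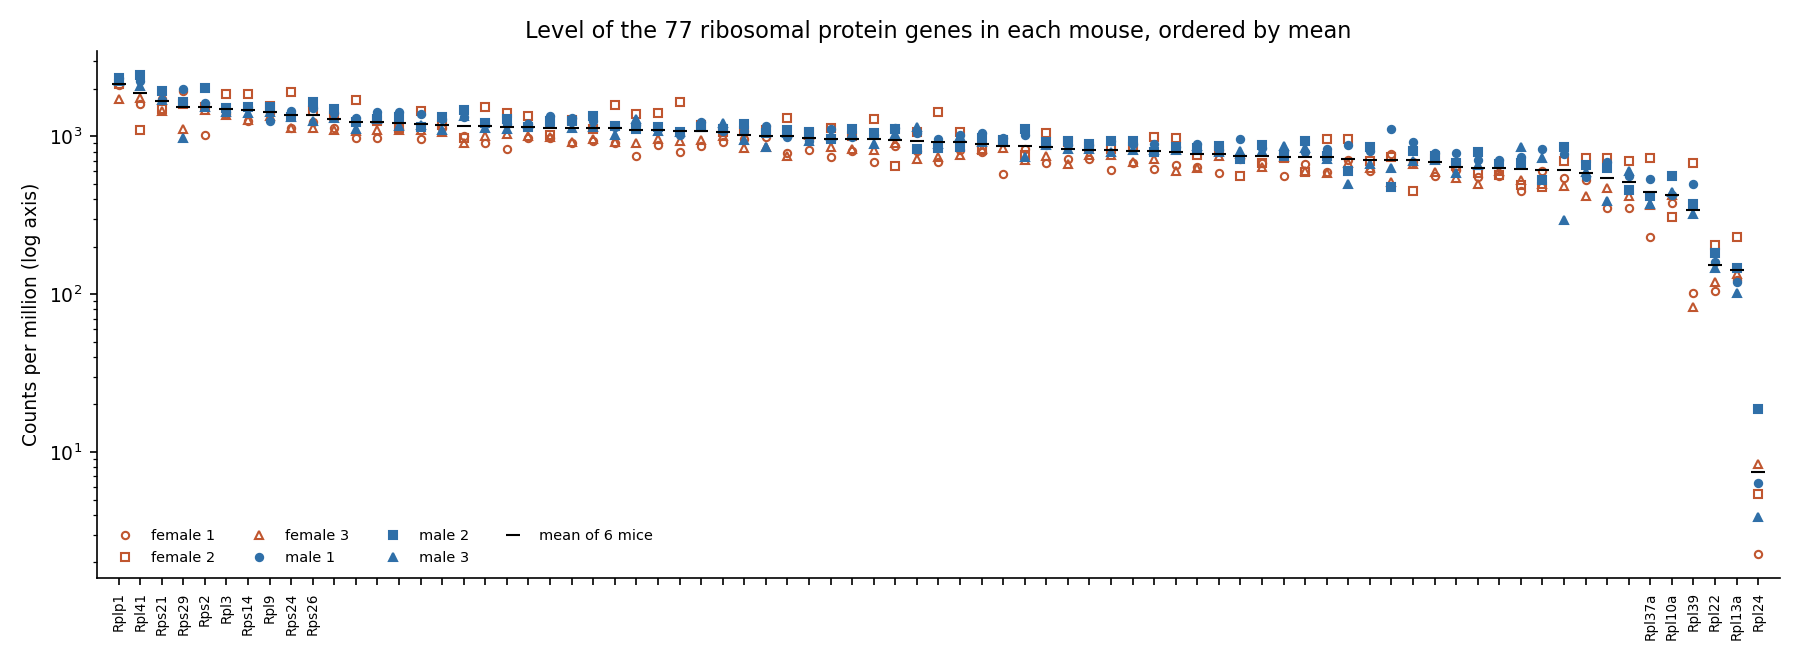
Level (CPM, log axis) of the 77 core ribosomal protein genes, ordered by their mean over 6 mice (black bars). Open symbols are females and filled symbols males, with a shape for each mouse number; names are given for the 10 highest and the 6 lowest. Most genes form a narrow band around 922 CPM, and Rpl24, Rpl13a, Rpl22 and Rpl39 fall below it.

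A few core genes stood apart. Rpl24, a large subunit protein, had only 25 counts in all and was found in 4.72% of wells, at 2.27, 5.39 and 8.45 CPM in females and 6.38, 18.7 and 3.87 in males, too low for the tests. The sources do not say how a read with several matches was counted. In the annotation, 4 other loci match the Rpl24 transcript nearly letter for letter (at least 95% identity over at least 50% of its length). Rpl13a, known for its part in silencing selected mRNAs after interferon, was at 122, 232 and 133 CPM in females and 119, 146 and 102 in males. Rpl22, a protein that binds RNA outside the ribosome as well, was at 104, 205 and 120.0 CPM in females and 161, 183 and 147 in males. For both, female 2 was the highest of all mice.

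Rpl39, a small protein at the exit tunnel of the large subunit encoded on the X chromosome, varied most between mice among the ribosomal protein genes at 50 CPM or more. It was at 102, 673 and 82.8 CPM in females and at 497, 374 and 323 in males, a coefficient of variation of 66.7%. Females 1 and 3 were low, and female 2 was above every male. Rpl39 had no near-identical copy in the annotation. Rpl37a, a zinc-binding protein of the large subunit, was also highest in female 2, at 231, 733 and 365 CPM in females, and was at 532, 420.2 and 374 in males. Rpl34 was at 542, 700.2 and 483 CPM in females and 774, 855 and 297 in males, and male 3 was the lowest of all. Rpl27 was at 775, 743 and 512 CPM in females and at 1109, 480.0 and 626 in males. Over the 77 core genes, female 2 was the highest mouse for 30 and male 2 for 24, while female 1 was the lowest for 40 and female 3 for 23.

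The paralog rows were low or near 0. Rpl3l and Rpl39l had 1 count each and Rpl10l had 3 over all 530 wells; Rpl3l is a muscle form of Rpl3, and Rpl10l and Rpl39l are forms of the male germ line. Rpl36al was at 43.1, 10.8 and 60.8 CPM in females and 65.1, 46.7 and 56.8 in males, and female 2 was the lowest. Rps27l, a p53 target, was at 58.8 ± 9.81 CPM (SD, n = 6) beside 582 for Rps27, which are 118 and 1685 CPM per kilobase. Rps27rt, a retrotransposed copy of Rps27, was at 54.8 ± 23.9 CPM, and its counts cannot be told from those of Rps27 where reads match both. Rps19bp1 was at 75.7 ± 10.6 CPM. The ubiquitin fusion Rps27a, which yields ubiquitin and a small subunit protein, was at 868, 1174 and 948 CPM in females and 1224, 1145 and 1142 in males. Fau, the ubiquitin-like fusion, was at 544, 770.2 and 566 CPM in females and 709.8, 709.7 and 689 in males.

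Ribosomal protein genes are rich in processed copies. Among the core genes the median number of near-identical annotated loci was 4, 16 of the 77 had none, and Rpl21 had the most, 56. Level did not follow this number: the median was 943 CPM for the 16 core genes with no copy and 1095 CPM for the 15 with 10 or more, and the rank correlation across the 77 genes, which are not independent replicates, was 0.144. The median log2 difference between the sexes was 0.21 and 0.24 for the same 2 groups. Values of single genes with copies stay uncertain where reads were split between loci.

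Across cells the sums of the large and small subunit genes moved together. Within each mouse the share of counts in large subunit genes and the share in small subunit genes went together over the wells, with a rank correlation of 0.832 ± 0.092 (SD over 6 mice, 84 to 93 wells each). The values were 0.853, 0.647 and 0.862 in females 1 to 3 and 0.897, 0.862 and 0.871 in males 1 to 3. For this correlation each sum was divided by the well's counts in all genes outside the 84, so both have the same total below them. With every well thinned to 2000 counts the mean was 0.646. The share of all 84 genes had a standard deviation over wells of 1.49 points, where counting alone would give 0.398. The spread beyond counting error came to a coefficient of variation of 19.5 ± 2.19% (SD, n = 6), from 17.1 to 23.1%.

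**Figure D3:**
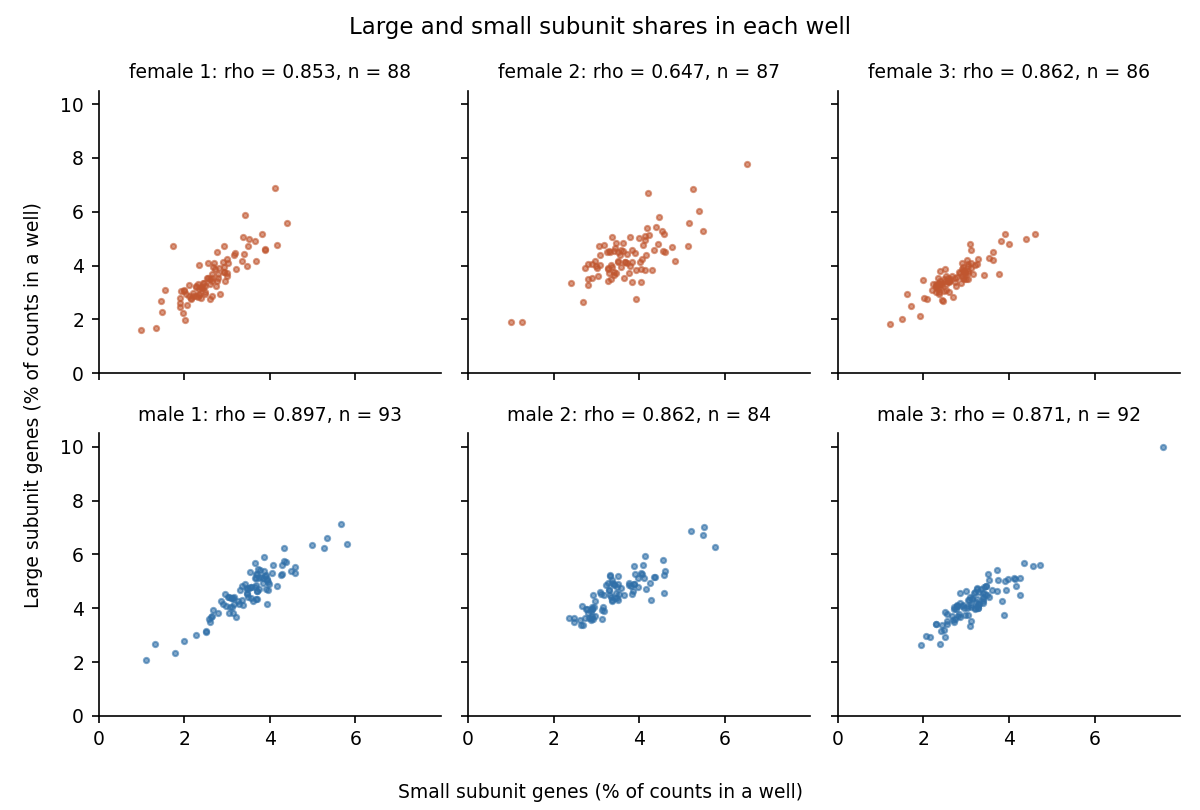
Share of a well's counts in large subunit genes (%, vertical) against that in small subunit genes (%, horizontal), with a panel for each mouse and a point for each well. The points lie along a rising line in all 6 panels, most loosely in female 2 (rank correlation 0.647). The correlations were taken on counts divided by those of all genes outside the family, not on the plotted percentages.

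Gene by gene the same held more weakly, as single genes had few counts per well. Over 2850 pairs of the 76 members found in at least 50% of wells, the within-mouse correlation of log levels had a median of 0.143, and 98.5% of pairs were above 0. The level used here was counts per 10000 non-member counts, so that a member was not set against itself in the total. Any other gene was still part of that total. Pairs of a member and another gene had a median of 0.0328 and pairs of other genes 0.0401. Small subunit pairs (median 0.179) were above large subunit pairs (0.121), with mixed pairs between them (0.146). The highest pair was Rpl9 with Rps14 at 0.378. These are descriptions over cells of the same plates, which share depth.

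Set against the summed level of the other members, Rps14 had the highest correlation, 0.575 ± 0.110 (SD over 6 mice), followed by Rps21 at 0.515 and Rpl17 at 0.475. Rpl27a was at 0.450 and Rpl37 at 0.439. Among 4177 genes found in 20% of wells, 71 of the first 100 in this order were ribosomal protein genes. The lowest of the 80 members measured were Rps27rt at 0.0445, Rpl13a at 0.0448, Rpl36al at 0.0719, Rps19bp1 at 0.0934 and Rps27l at 0.112. All but Rpl13a of these 5 are paralog rows or Rps19bp1, and all 5 were found in 53.4% of wells or fewer.

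Genes outside the family were ranked by the same correlation. Eef1a1, the elongation factor that brings tRNA to the ribosome and itself a TOP mRNA, came first at 0.424 ± 0.151, with 0.516, 0.131 and 0.492 in females and 0.549, 0.440 and 0.418 in males. Tpt1, another known TOP mRNA, followed at 0.365. Wdr89 came next at 0.362, and 447 bases of its transcripts are 99.3% identical to Rplp2. Fau was at 0.294, Eef1b2, an exchange factor for Eef1a1, at 0.289, and Rpl22l1, the paralog of Rpl22 left out by its symbol, at 0.278. Gm9843, a processed pseudogene of Fau identical to it over 402 bases, was at 0.275, and Gm10076, 99.2% identical to Rpl41 over 360 bases, at 0.273. Myl6, a myosin light chain, was at 0.255 and Ubb, a ubiquitin gene, at 0.243. Wdr89, Gm9843 and Gm10076, 3 of these 10 rows, therefore match a ribosomal protein mRNA in sequence. At the other end, Slc17a6, the vesicular glutamate transporter of these neurons, was at -0.28 and ranked 4174 of 4177, and Nr5a1 was at -0.15. The other VMH markers measured were higher: Sox14 at 0.058, Fezf1 at -0.033 and Adcyap1 at -0.087. Pan-neuronal markers ran from -0.18 for Snap25 to 0.22 for Uchl1.

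Deeper wells had a lower share. Within each mouse the share and the total count of a well had a rank correlation of -0.10, -0.29 and -0.17 in females and -0.30, -0.42 and -0.37 in males. In the shallowest 25% of the wells of each mouse the share was 7.92 ± 1.01% (SD, n = 6), and in the deepest 25% it was 6.82 ± 0.562%, a within-mouse difference of 1.10 ± 0.497 points that ranged from 0.350 to 1.71. The share of mitochondrial genes went the other way in the means, from 4.75% to 5.31%. Thinned to 2000 counts, the wells kept a rank correlation of -0.30 between the share and the original depth. Cell size, RNA content and capture in a well are not recorded, and their part was not tested.

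**Figure D4:**
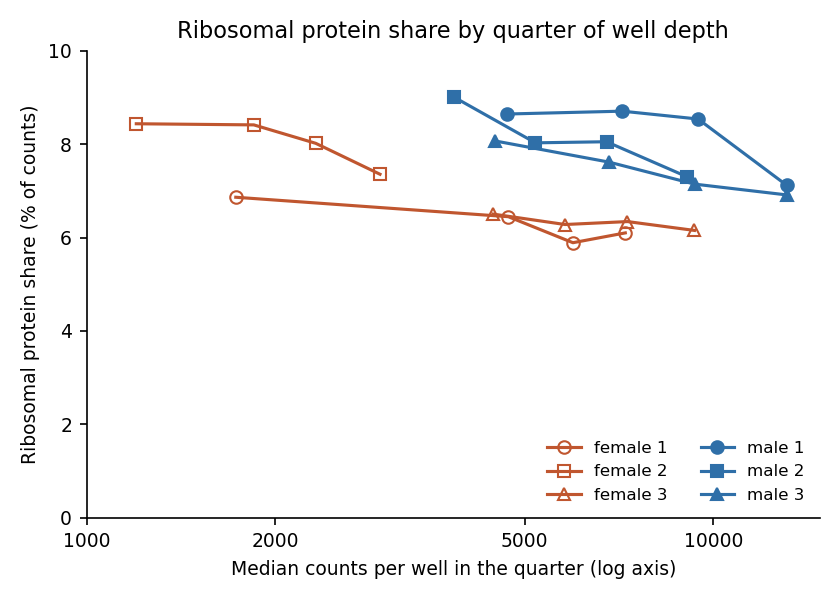
Share of counts in ribosomal protein genes (%, vertical) in 4 equal groups of a mouse's wells ordered by depth, plotted at the group's median counts per well (log axis). The shallowest group is above the deepest in all 6 mice, by 0.350 to 1.71 points, and female 2 lies at a high share and low depth.

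The wells of each plate were also split at its median depth. Those under it had the higher level in all 6 mice for 22 of the 79 members at 50 CPM or more (27.8%), against 3.26% of all 3433 genes at that level. Those above it were higher in all 6 mice for 0 of the 79, against 4.05% of all genes. The median log2 difference of the members was 0.14, and that of all genes was -0.02. Rpl22 had the greatest mean log2 difference, 0.58 ± 0.281 (SD, n = 6), with 0.93, 0.52 and 0.75 in females and 0.21, 0.30 and 0.75 in males. Rps19, mutated in Diamond-Blackfan anaemia, followed with 0.32 ± 0.175, and Rps10 with 0.29 ± 0.110.

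Between the sexes no ribosomal protein gene passed the test. Counts were summed per mouse and tested with edgeR's quasi-likelihood test over 6794 genes, of which 80 were members; Rpl24, Rpl3l, Rpl10l and Rpl39l were too low. At an adjusted p under 0.05, 0 of the 80 and 0% of all genes were called. At an unadjusted p under 0.05 there were 5 of 80 (6.25%) and 2.46% of all genes. DESeq2 called 0 members and 0.0589% of genes. The median standard error of a member's log2 difference was 0.22.

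The estimates were nonetheless mostly on 1 side. The log2 difference, male over female, was above 0 for 70 of the 80 members and for 46.1% of all genes tested, with a median of 0.21 beside -0.03 for all genes. Of the core genes tested, 40 of 45 large subunit genes were above 0 (median 0.25) and 27 of 31 small subunit genes (median 0.18). Females had a summed share of 6.80 ± 0.967% and males one of 7.73 ± 0.409% (SD over 3 mice). The difference of 0.933 points is smaller than the spread among females. When 1 mouse was left out, the difference in share ran from 0.633 to 1.49 points, highest without female 2. The median log2 difference then ran from 0.15 to 0.36, again highest without female 2. With all mice and every gene kept regardless of count, this median was 0.33. All 3 male values exceeded all 3 female values for 20 of the 80 members (25%), against 3.96% of all genes, and the reverse held for 0 of 80, against 4.52%. Of the 20 genes, 16 were large subunit genes. Without female 2 there were 60 of 80 (75%), against 10.8% of all genes. No other mouse was left out for that count. Oligodendrocyte lineage markers (7 of 7 with a count) summed to 91.6 to 179 CPM in females and 57.5 to 78.7 in males. Endothelial and mural markers (5 of 6 with a count, Cdh5 at 0) summed to 8.45 to 11.3 CPM in females and 3.83 to 7.47 in males. Neither list overlapped between the sexes. Depth, astrocyte markers and arcuate markers, given above, also differed between the mice. The part of these marker lists and of depth was not tested. With every well thinned to 2000 counts the difference in share was 1.06 points, and in wells with 3 or more pan-neuronal markers 0.935 points.

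The 3 members with the smallest p in each direction did not pass. Rpl32, of the large subunit (chromosome 6, 115805505 to 115808747, minus strand, GENCODE vM21 on GRCm38), was at 451, 490.2 and 529 CPM in females and 743, 678 and 857 in males, a log2 difference of 0.65 ± 0.203 (SE; edgeR adjusted p = 0.999). Rpl23a, which lies at the tunnel exit where nascent chain factors bind, was at 1008, 969.5 and 909 CPM in females and 1323, 1469.7 and 1335 in males, a log2 difference of 0.53. The groups did not overlap for either gene. For Rpl41, given above, the log2 difference was 0.62. In the other direction the estimates were smaller: -0.36 for Rpl13a, -0.25 for Rps27rt and -0.22 for Rps15a, and all 3 overlapped between the sexes. Rps15a was at 709, 959 and 678 CPM in females and 879.6, 599 and 496 in males. Rpl36a, X-linked, did not overlap (557, 566 and 607 CPM in females and 702, 667 and 669 in males), while the X-linked Rps4x, Rpl10 and Rpl39 did.

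Other genes of translation were spread on both sides of 0. Of the 163 tested, edgeR called 0, 4 had an unadjusted p under 0.05 (2.45%), and DESeq2 called 1, Eif4a2. For initiation factors 16 of 32 tested were above 0 (median 0.0018), for elongation factors 3 of 7 (median -0.03), for ribosome biogenesis factors 12 of 27 (median -0.05), for factors that meet the nascent chain 4 of 8 (median 0.03) and for mTORC1 and TOP mRNA regulators 4 of 9 (median -0.04). The mitochondrial ribosomal proteins, encoded in the nucleus and built into a separate ribosome, were above 0 for 42 of 77 (median 0.03). Fau and Rack1 were above 0 at 0.19 and 0.32. Eif4a2, an RNA helicase of initiation, had the smallest p of these lists: it was at 691, 415 and 252 CPM in females and 46, 50.4 and 134 in males, a log2 difference of -2.53 ± 0.482 (SE; edgeR adjusted p = 0.439). Its groups did not overlap. Eef1a1 was at 3096, 1853 and 3141 CPM in females and 2671, 3793 and 4111 in males, and female 2, high for most ribosomal proteins, was lowest for it.

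Neuron markers split the wells of each mouse into those with and those without a count of the marker, and both sides were compared within the mouse. The VMH marker Nr5a1, which encodes the factor Sf1, went with a lower ribosomal protein share in all 6 mice. The difference was -0.395, -0.858 and -0.400 points in females and -0.239, -1.07 and -0.302 in males, a mean of -0.544 ± 0.339 (SD, n = 6). Wells with Nr5a1 were also deeper in all 6 mice. For 2000 counts per well, each marker was looked up again in the thinned counts, so some wells changed sides. Nr5a1 was then detected in 62 wells, and the mean was -0.313 ± 0.306 points, lower in 5 of 6 mice. Wells with Tac1, the gene of substance P, differed by -0.158, 0.0749 and -0.604 points in females and 0.0709, -0.671 and -0.395 in males, a mean of -0.280 ± 0.327. At 2000 counts per well, with Tac1 detected in 138 wells in place of 193, this was -0.390 ± 0.243, lower in all 6. Tac1 wells were deeper in 6 of 6 mice before thinning. With all counts, none of Tac1, Rprm, Pdyn, Sst and the GABA genes gave a difference beyond the spread between mice. The values were -0.0867 ± 0.377 points for Rprm, -0.187 ± 0.394 for the opioid peptide gene Pdyn and -0.0760 ± 0.283 for the somatostatin gene Sst. For wells with any of the GABA genes Gad1, Gad2 and Slc32a1 it was 0.0339 ± 0.344. At 2000 counts per well Pdyn was at -0.253 ± 0.452, lower in 5 of 6 mice, and Sst at 0.127 ± 0.274, higher in 5 of 6.

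**Figure D5:**
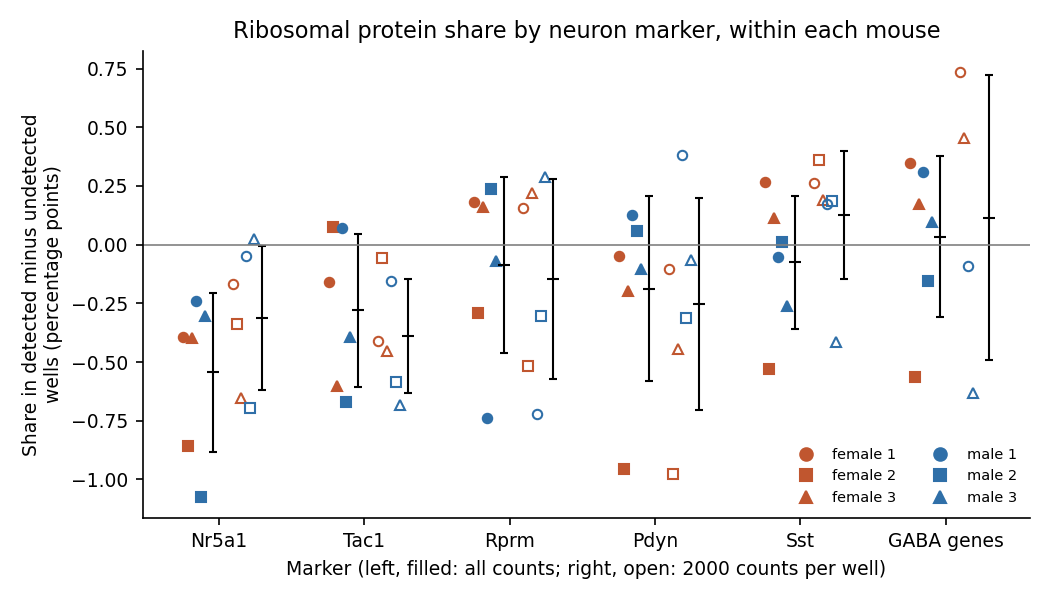
Difference in ribosomal protein share (percentage points, vertical) between wells with and without a count of each marker, a point for each mouse with at least 5 wells on both sides; bars are the mean and SD over mice. Filled points use all counts and open points 2000 counts per well, with the marker detected again in the thinned counts. Nr5a1 lies below 0 in all 6 mice with all counts, and Tac1 in all 6 at 2000 counts.

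Slc17a6, carried by most VMH neurons, gave the widest difference of the markers examined. The share was 7.11 ± 0.828% in the 407 wells with a count and 8.30 ± 0.747% in the 123 without, lower by 1.19 ± 0.550 points and in 6 of 6 mice. Wells without Slc17a6 were shallower in all 6 mice (median over mice 4873.75 counts, against 6603.25). At 2000 counts per well Slc17a6 was detected in 266 wells and not in 209, so the 2 sides were no longer the same wells. The difference was then -0.425 ± 0.358 points, lower in 5 of 6 mice. Fezf1 gave -0.198 ± 0.254, Sox14 -0.0706 ± 0.371, Penk -0.241 ± 0.575, Bcl11b -0.356 ± 0.311 and Cartpt 0.222 ± 0.499 points. Bcl11b was lower in 5 of 6 mice, but at 2000 counts per well its difference was 0.135 ± 0.682 points. That value rests on 3 mice, with Bcl11b detected in 15 wells. Esr1, the estrogen receptor alpha gene, had enough wells in only 2 mice, where the differences were -0.742 and -0.0746 points.

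Gene by gene, 1 member passed in 1 of the 6 marker comparisons. Rpl13, a large subunit protein (chromosome 8, 123102350 to 123105244, plus strand), was lower in Nr5a1 wells in every mouse: 873 against 1076 CPM in female 1, 904 against 1108 in female 2 and 725 against 888 in female 3. In males 1 to 3 it was 1003 against 1117, 1010.0 against 1329 and 880.1 against 991. The log2 difference was -0.27 ± 0.0692 (SE; edgeR adjusted p = 0.0249). Of all 4001 genes, 1.27% were called in either direction and 0.4% were called as lower, so that 1 of 80 members (1.25%) is near the background. The call was lost with DESeq2 (adjusted p = 0.133; 0.175% of all genes called) and at 2000 counts per well (0.847), and also without female 1 (0.0865), female 3 (0.0925), male 2 (0.151) or male 3 (0.0519). Rps18 and Rpl10 were at log2 differences of -0.25 and -0.25 and did not pass. In all, 71 of the 80 members were below 0, against 50.7% of all genes, with a median of -0.11 beside -0.0039 for all genes. At an unadjusted p under 0.05 there were 25 of 80 members (31.2%) and 11.1% of all genes.

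For Tac1, 0 of 80 members and 0.888% of all genes were called at an adjusted p under 0.05 (edgeR), and 66 of 80 were below 0 (median -0.06), against 50.3% of all genes. Rpl10 and Rps27a were at log2 differences of -0.19 and -0.17. At an unadjusted p under 0.05 there were 10 of 80 members (12.5%) and 8.47% of all genes, and DESeq2 called 0 (0.137% of all genes). For Rprm, 0 of 80 members and 0.131% of genes were called, and the least p was that of Rpl10a, at -0.22, lower in 6 of 6 mice. For Pdyn, 0 of 80 members and 1.6% of genes were called; Rpl35 was at 0.20 and Rps13 and Rpl8 at -0.18 and -0.20. For Sst, 0 of 79 and 0.22% were called, with Rps3 at -0.19, lower in 6 of 6 mice. For the GABA genes, 0 of 77 and 1.52% were called, with Rps13 and Rps27 at 0.21 and Rps3 at -0.18. At an unadjusted p under 0.05 there were 1 of 80 members in Rprm (5.75% of all genes), 4 of 80 in Pdyn (11% of all genes), 3 of 79 in Sst (5.66%) and 1 of 77 in the GABA genes (9.75%). The members' share was below that of all genes in each of these 4 comparisons. DESeq2 called 0 members in each (of all genes, 0.0436%, 0.643%, 0.0314% and 0.614% in that order). Rps13 thus lay below 0 in Pdyn wells and above 0 in GABA wells, though neither passed. The lists of elongation, initiation, nascent chain and biogenesis factors, of mTORC1 and TOP regulators and of mitochondrial ribosomal proteins had no gene called by edgeR or DESeq2 in any of the 6 comparisons, with between 6 and 13 of the 120 to 151 listed genes tested at an unadjusted p under 0.05 (4.64 to 8.84%, beside 5.66 to 11.1% of all genes).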

How the data were processed

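The deposited files hold, per the file headers, 1 column per well of whole-number counts for 21926 genes, with no normalisation and no wells removed. The submitters' processing notes name HTSeq and mm10. Not given in the sources used here were the aligner, the strand setting, the rule for reads with several matches, and if counts are molecules or reads. The members, gene lists and tests were chosen with earlier results of these data known.

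Wells with under 500 genes (46 of 576) were left out, and none failed the mitochondrial limit alone. Totals per mouse ran from 185654 to 783270 counts. CPM are counts summed per mouse divided by their total. Sums per mouse were tested with edgeR 4.0.16 (quasi-likelihood test, TMM, filterByExpr, R 4.3.3), with Benjamini-Hochberg adjustment over all genes tested and a threshold of 0.05. Marker comparisons used sums of wells with and without a count, in mice with at least 5 wells of each, with mouse as a block. DESeq2 1.42.0 was an alternative, as were other scaling, no low-count filter, a filter of 1000 genes per well, thinning to 2000 counts (which left out 55 wells, 39 of them of female 2), a marker threshold of 2 counts, and leaving out each mouse. Markers were detected again in the thinned counts. The split at the median depth used log2(CPM + 5) and genes at 50 CPM or more. The fits were tested on simulated data. There the sex fit called 28% of the genes given a log2 difference of 1 and 94% of those given 2. The Nr5a1 fit called 95% and 89% of them. Near-identical copies were found with BLAST+ 2.17.0 among GENCODE vM21 transcripts (GRCm38), and promoters came from RefSeq (GRCm38.p6).

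The genes named were the 10 highest and 5 lowest by mean CPM, the 5 most variable over mice at 50 CPM or more, paralogs and ubiquitin fusions, the called members of each comparison or the 3 of smallest p in each direction, and the 10 other genes most like the family. Some genes that this rule names are not reported here. A few further genes (Rpl22, Rpl36a, Rps4x, Rpl37, Rps19, Rps10) were named after their values were seen. Samples of the same number in the 2 sexes did not deviate together (correlations of -0.162, -0.0870 and 0.232 over 3433 genes), so the numbers were not used as pairs.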

Additional observations from a re-analysis of the deposited data

Results flagged for a closer look

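In 6 mice, a value was taken as far from the others by Dixon's criterion, which flags about 1 group in 20 by chance; 18 groups were examined. The rank correlation of large and small subunit shares across wells was 0.647 in female 2 and between 0.853 and 0.897 in the 5 other mice. Female 2 had the lowest depth, 2097 counts in a median well. The difference in ribosomal protein share between wells with and without Pdyn was -0.957 points in female 2, with 12 wells on the Pdyn side, and between -0.197 and 0.126 points in the others. The 46 wells left out of all comparisons for having few genes held 4640 counts, of which 242, or 5.22% (exact 95% interval 4.59 to 5.89%), were of ribosomal protein genes. Female 1 gave 3595 of these counts, at 4.17%; without it the share was 92 of 1045, or 8.80%, and the 5 other mice ran from 3.67 to 18.0%. This last comparison was chosen after seeing the data.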

How the results depend on the processing

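Of the main results, 286 alternative values stayed near the reported one and 15 moved. Near meant within the SD between mice, or a similar count of called members. Sign was not part of that rule, so small differences could change sign and stay. With all mice kept, the alternative differences in share ran from -0.0786 to 0.127 points for Sst and from -0.0611 to 0.154 for the GABA genes. Of single genes, 521 kept sign and call, 9 no longer passed and 21 changed sign. The share in the wells left out moved to 8.80% without female 1. In the comparison of the sexes no alternative called a member. Its median log2 difference ran from 0.15 to 0.36 when 1 mouse was left out, highest without female 2. With the replicate number as a block it was 0.23 with 0 members called, and the numbers do not pair the mice. The count of members called for Nr5a1, 1 as reported, was 0 with DESeq2, with no filter on low counts, with no replicate block, with a marker threshold of 2 counts and at 2000 counts per well, and from 0 to 2 when 1 mouse was left out. For Tac1 it was 1 at 2000 counts per well. With no filter on low counts the median was -0.14 for Sst and -0.24 for the GABA genes. The rank correlation of the subunit shares was 0.646 at 2000 counts per well. The causes were not tested.

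The single-gene signs that changed were of genes that had not passed. Rps27rt between the sexes ran from -0.57 to 0.42 when 1 mouse was left out, and was at 0.017 without male 3. For Nr5a1, Rps15a was at -0.0023 with no filter and -0.054 with 2 marker counts, and ran from -0.0019 to 0.096 when 1 mouse was left out. Rpl36a ran from -0.017 to 0.12 (-0.0065 without female 1), and Rpl3 was at -0.14 at 2000 counts per well. For Tac1, Rpl12 ran from -0.00089 to 0.10 and was at -0.0077 with 2 marker counts and -0.018 at 2000 counts. With 2 marker counts Rpl11 was at -0.033 for Rprm. At 2000 counts, Rpl14 was at -0.091 for Rprm, Rpl27 at -0.039 for Pdyn, and Rps13, Rps27a and Rpl38 at -0.031, -0.079 and 0.17 for the GABA genes. With no filter, Rpl6 was at -0.030 for Sst, and Rps13, Rps27 and Rps27a at -0.034, -0.026 and -0.091 for the GABA genes.

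Depth limits single genes: female 2 kept 48 of its 87 wells at 2000 counts. With 3 mice of each sex, the median standard error of a member's log2 difference was 0.22.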
